A study of Mus musculus with 28 samples.

Results

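The regions described here carried H3K27me3 in control mesodermal cultures and overlapped no region enriched for Suz12. They were chosen by their calls and widths in the H3K27me3 and Suz12 lists. Regions of the 3 control H3K27me3 lists were merged where they had 1 bp or more in common, and those called in at least 2 lists, narrower than 5000 bp and overlapping none of the 4 Suz12 lists (2 control, 2 4-OHT) were kept. This gave 3857 regions, of 6473 control H3K27me3 regions in all and of 5962 narrower than 5000 bp. The other 2105 narrow regions overlapped Suz12 and serve as the comparison. "Suz12-free" is used below for a region without a listed Suz12 region, which is not a measurement that Suz12 was absent, since the lists hold no score and no read count.

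H3K27me3, trimethylation of lysine 27 of histone H3, is deposited by Polycomb repressive complex 2 (PRC2), in which Suz12 is a core subunit beside Eed and the methyltransferases Ezh1 and Ezh2. In embryonic stem cells PRC2 gathers at CpG-rich promoters of developmental regulators, and the mark can extend from such sites into flanking chromatin. Brg1 is the ATPase of BAF chromatin remodelling complexes.

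All H3K27me3, Suz12 and H3K27ac libraries came from Brg1f/f;Actin-CreER mouse embryonic stem cells, differentiated as embryoid bodies and brought to mesoderm at day 4 by 40 h with VEGF, Activin A and BMP4. Controls received the solvent tetrahydrofuran (THF), and the treated cultures 200 nM 4-OHT at day 2, which activates CreER and deletes the floxed Brg1 alleles in any cell in which the Actin-driven recombinase works. H3K27me3 was measured in 3 control and 3 4-OHT cultures, and Suz12 and H3K27ac in 2 and 2. The FLAG lists (3 replicates) stand for tagged Brg1, and their labels name the same genotype whereas the study's methods name Brg1-FLAG cells. These are bulk cultures, so a mark lost in some cells and a weaker mark in every cell cannot be told apart, and the lists hold no check of the Brg1 deletion or of the cell type.

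One feature of the libraries came before every result. Replicate 1 of H3K27me3 stood apart in both conditions, with 16959 control and 10394 4-OHT regions of at most 9300 and 7550 bp, whereas the other 4 lists held 6787 to 8977 regions reaching 33350 to 94725 bp. Chosen without it, from both other control lists, the Suz12-free regions numbered 2672, of which a mean of 58.7% were called after 4-OHT. In each numbered pair the 4-OHT list held fewer regions and covered less DNA than the control list: 4.74 against 8.38 Mb, 8.99 against 11.0 Mb and 7.62 against 10.0 Mb for replicates 1, 2 and 3. Read depth is unknown, so a shorter 4-OHT list may reflect depth as well as the mark, and these cannot be told apart.

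To show what the DNA of these regions looks like, the central 200 bp of 8 regions are printed (mm9, plus strand, CpG dinucleotides in capitals), each named by the nearest protein-coding start site. The first 3 are the widest Suz12-free regions called in all 6 H3K27me3 lists, the next 3 the widest called in all 3 control and no 4-OHT list, and the last 2 the widest narrow regions with Suz12 called in all 6 lists. None of the windows lay in an annotated UTR.
Dagla, chr19:10356238-10356437: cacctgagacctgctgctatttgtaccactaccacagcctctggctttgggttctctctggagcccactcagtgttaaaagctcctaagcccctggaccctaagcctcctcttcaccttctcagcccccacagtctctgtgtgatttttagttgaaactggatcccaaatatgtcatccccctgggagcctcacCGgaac
Grb10, chr11:11928888-11929087: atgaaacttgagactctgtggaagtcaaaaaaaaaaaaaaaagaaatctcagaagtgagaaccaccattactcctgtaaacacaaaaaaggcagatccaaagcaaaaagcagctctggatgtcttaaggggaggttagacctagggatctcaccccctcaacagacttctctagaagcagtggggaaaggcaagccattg
Smug1, chr15:103003401-103003600: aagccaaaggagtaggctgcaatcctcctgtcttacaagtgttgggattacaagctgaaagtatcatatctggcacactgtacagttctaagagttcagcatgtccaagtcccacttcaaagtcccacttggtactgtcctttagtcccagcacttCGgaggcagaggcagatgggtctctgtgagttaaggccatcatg
Ezh2, chr6:47598388-47598587: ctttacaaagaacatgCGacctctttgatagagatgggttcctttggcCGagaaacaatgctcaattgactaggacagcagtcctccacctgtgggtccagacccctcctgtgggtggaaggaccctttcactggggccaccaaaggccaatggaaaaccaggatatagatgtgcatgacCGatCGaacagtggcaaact
Cdh26, chr2:178376401-178376600: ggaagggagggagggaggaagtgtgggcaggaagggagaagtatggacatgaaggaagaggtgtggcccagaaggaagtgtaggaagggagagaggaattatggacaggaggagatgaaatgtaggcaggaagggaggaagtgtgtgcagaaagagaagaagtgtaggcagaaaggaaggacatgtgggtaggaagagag
Tifab, chr13:56313626-56313825: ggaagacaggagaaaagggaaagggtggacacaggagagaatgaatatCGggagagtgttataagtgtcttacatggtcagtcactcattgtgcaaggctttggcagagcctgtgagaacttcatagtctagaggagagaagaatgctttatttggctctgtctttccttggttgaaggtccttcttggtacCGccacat
Smarcd3, chr5:24105988-24106187: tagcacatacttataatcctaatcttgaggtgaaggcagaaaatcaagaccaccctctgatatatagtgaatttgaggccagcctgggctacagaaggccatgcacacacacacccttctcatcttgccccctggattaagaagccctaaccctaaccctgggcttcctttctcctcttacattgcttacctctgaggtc
Grm7, chr6:110596063-110596262: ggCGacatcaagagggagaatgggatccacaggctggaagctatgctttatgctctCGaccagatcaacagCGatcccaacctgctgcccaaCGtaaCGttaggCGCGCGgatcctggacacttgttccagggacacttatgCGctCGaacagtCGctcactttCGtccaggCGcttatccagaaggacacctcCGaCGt
The Suz12-free windows held 0 to 4 CpGs, with 0 at Grb10 and near Cdh26. Of the windows with Suz12, the window at Grm7, a glutamate receptor gene, held 15 CpGs and that at Smarcd3, a BAF subunit gene, held 0, so single windows of the latter class also varied.

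The width limit and the Suz12 rule were drawn through a continuous set. The widest Suz12-free regions were 4825 and 4575 bp wide. Just outside the limit lay 5 regions of 5100 to 7875 bp without Suz12, nearest to Lsm14b, Tspan2, Slc25a4, Hes7 and Gm10528 (named after their values were seen). On the Suz12 side, 35 of the chosen regions touched a Suz12 region without sharing a base, and 215 of the comparison regions overlapped one by 100 bp or less. Of the comparison regions 495 overlapped Suz12 in the 4-OHT lists only, so Suz12 calls after 4-OHT helped to set the classes. Of the chosen regions 1869 were called in exactly 2 control lists and 1988 in all 3, while a further 10781 narrow regions without Suz12 were called in 1 control list only and were left out.

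The Suz12-free regions lay at widely spread distances to Suz12. The median distance to the nearest Suz12 region was 2.95 kb, with quartiles of 0.775 and 99.4 kb. Within 1 kb of Suz12 lay 1122 regions (29.1%), between 1 and 5 kb another 1047 (27.1%), and between 5 and 10 kb 174 (4.51%). The rest were farther from any Suz12 region: 551 regions lay 10 to 100 kb away, 823 lay 100 to 1000 kb away and 140 lay farther still. These ranges differ in width, and the distances of positions unrelated to Suz12 were not computed. The counts therefore do not show that the regions form separate classes. The 2169 regions closer than 5 kb are called flanking regions here and the 1688 others distant regions, a split made after the distances were seen. With only the control Suz12 lists the median was 19.9 kb, and 561 flanking regions had a Suz12 region within 5 kb in a 4-OHT list alone. Without 4-OHT Suz12 replicate 2 it was 6.10 kb.

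**Figure D1:**
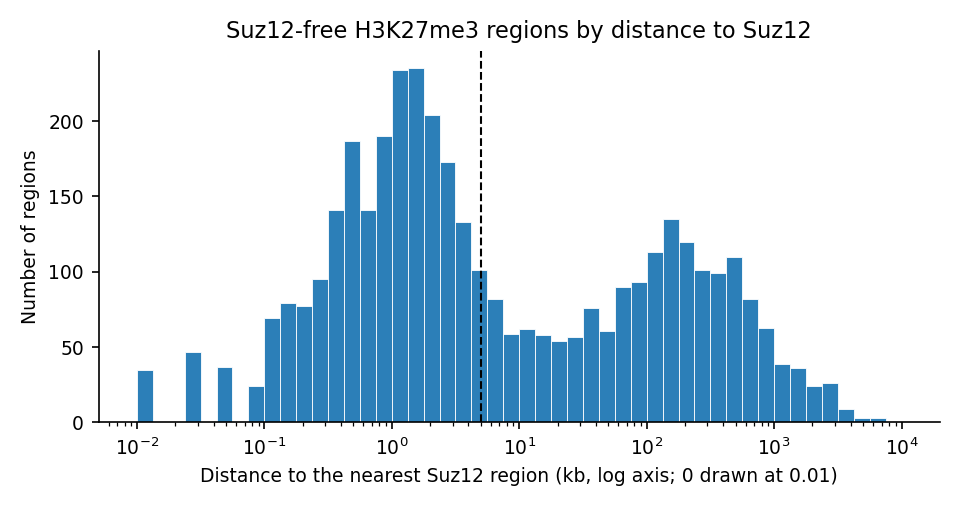
Number of Suz12-free H3K27me3 regions by distance to the nearest Suz12 region of any of the 4 lists, in kb on a log axis, with touching regions drawn at 0.01 kb and a dashed line at 5 kb. On this axis a first peak near 1 kb and a second between 100 and 1000 kb are separated by a trough that starts just past 5 kb. The distances of positions unrelated to Suz12 were not computed, so the second peak does not set a class apart.

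Flanking regions gathered around 1586 Suz12 regions, of the 4674 left after merging the 4 Suz12 lists. At 452 of these Suz12 regions at least 2 flanking regions lay beside the same Suz12 region, and at 175 they lay on both sides. A total of 1068 of the 1586 also overlapped a control H3K27me3 region themselves. Of all 3857 Suz12-free regions, 1688 lay within 5 kb of a control H3K27me3 region that overlapped Suz12. Of these, 73 were distant regions and the rest flanking regions. That the distant regions also number 1688 is a coincidence.

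The flanking and distant sets were alike in width, with medians of 650 and 675 bp, and both were narrower than regions with Suz12, whose median was 2025 bp. The narrowest Suz12-free region was 25 bp wide, a single step of the grid on which all edges lie. All Suz12-free regions together covered 3.14 Mb. The number per chromosome ran from 50 on X to 352 on chromosome 2, and none was listed on Y.

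Of the 5 Suz12-free regions farthest from Suz12, 2 lay beside each other at a single gene. The farthest was a 1525 bp region at the start of Fam5c, a gene expressed in brain (chr1:148342901-148344425), 5903 kb from Suz12. It covered 975, 1525 and 725 bp in control lists 1, 2 and 3 and 1000, 1000 and 825 bp in the 4-OHT lists, so the conditions overlapped. A second, 275 bp region lay beside it, and the others lay near Dsel, at the start of the adhesion molecule gene Alcam and near 4933412E24Rik. These 4 were 125 to 750 bp wide, and 3 of them were called in a single 4-OHT list. At the other end, the 5 widest of the regions touching Suz12 were 1900 to 3725 bp wide and were called in all 6 lists. They lay at promoters of 2810032G03Rik, Gm16140 within Meis1 and Prkar2b, and between genes, 18.8 kb from the start of Cacna2d2 and 18.6 kb from that of Scarf2.

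Suz12-free regions lay less often at gene starts than regions with Suz12. Within 2.5 kb of a transcription start site (promoter regions) were 2337 of 3857, or 60.6% (95% exact binomial interval 59.0 to 62.1%), beside 69.1% of all narrow control regions and 84.7% of those with Suz12. A start site lay inside 5.42% of the Suz12-free regions and 43.4% of the others, and the median distance to a start site was 1.58 kb against 0.0930 kb. Of the Suz12-free regions 3.63% overlapped an exon away from promoters, 11.2% an intron and 24.6% no gene. Flanking and distant regions had nearly the same share at promoters, 60.8 and 60.4%, but the share fell and rose again with distance. It was 78.3% within 1 kb of Suz12, 41.9% between 1 and 5 kb, 28.7% between 5 and 10 kb, 54.1% between 10 and 100 kb, 67.9% between 100 and 1000 kb and 80.0% beyond.

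The DNA of the Suz12-free regions was poorer in CpG. The median was 1.20 CpG per 100 bp (quartiles 0.737 and 1.88), against 3.68 in narrow regions with Suz12 and 0.834 over the whole genome. Flanking regions had a median of 1.16 and distant regions 1.27. Median GC content was 46.8% against 53.9% with Suz12 and 41.8% over the genome.

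Both differences were tested over the 6 lists, each taken on its own and split by Suz12. The promoter share was lower without Suz12 in 6 of 6 lists, by 18.2 ± 7.83 percentage points (SD, n = 6; exact sign-flip test, two-sided, p = 0.031, the smallest it allows). The median CpG content was lower in 6 of 6 lists by 2.15 ± 1.11 per 100 bp (SD, n = 6; exact sign-flip test, two-sided, p = 0.031). These p treat the 6 lists as independent, although same-numbered control and 4-OHT lists are paired and all lists share genomic positions. With the pairs averaged both differences gave p = 0.25 (exact sign-flip over 3 pairs, two-sided), the smallest that 3 pairs or the 3 control lists alone allow, so neither call can be made with the pairing. With listed regions of at least 500 bp only, the promoter difference was -9.76 points, without minus with Suz12 (exact sign-flip p = 0.09375). Both replicates 1 showed the smallest gaps: the promoter share differed by 15.1 points in control 1 and 4.52 in 4-OHT 1, against 18.8 to 25.5 in the others, and CpG by 0.748 and 0.678, against 2.83 to 2.90. In the replicate 1 lists it was the regions with Suz12 that held less CpG, 1.69 and 1.54 per 100 bp against 3.88 to 4.10 in the other lists. When regions with Suz12 were averaged at the widths of the Suz12-free ones, 82.8% lay at promoters.

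**Figure D2:**
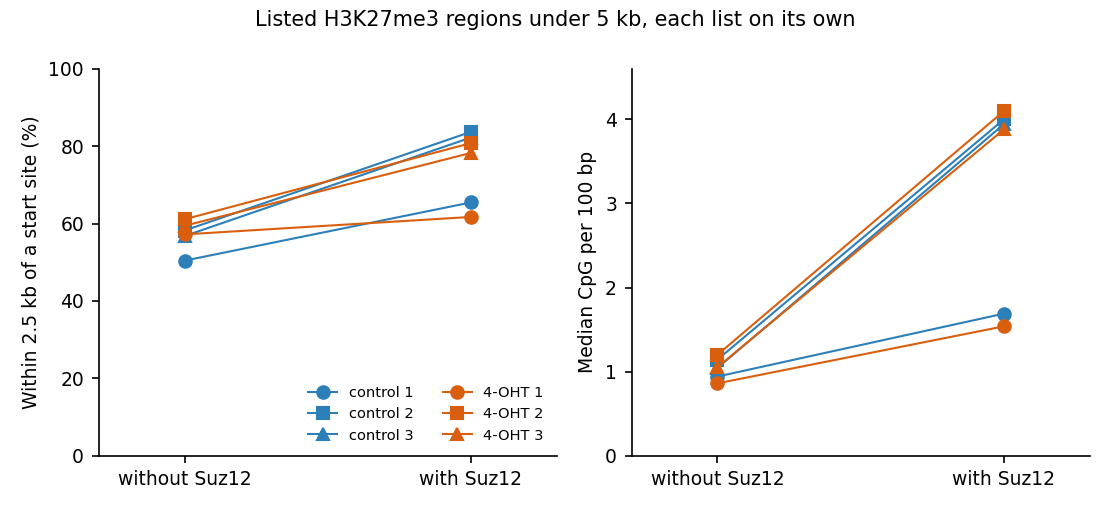
Share of regions within 2.5 kb of a start site (left, %) and median CpG per 100 bp (right) of listed H3K27me3 regions narrower than 5 kb, without and with Suz12, with 1 line per list (blue control, orange 4-OHT; circle, square and triangle for replicates 1, 2 and 3). Every line rises to the right, and the replicate 1 lines rise least.

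After 4-OHT fewer of the Suz12-free regions were called. Of the 3857 regions, 54.5% were called in 4-OHT list 1, 52.1% in list 2 and 40.3% in list 3, a mean of 49.0 ± 7.62% (SD, n = 3). A call here needs 1 bp, and when at least 50% of a region's bases had to be covered the mean was 19.5 ± 4.31%. The same regions had been called in 84.6, 86.4 and 80.6% in control lists 1, 2 and 3, which the choice of members itself raised. In all, 974 regions (25.3%) were called in no 4-OHT list and 950 (24.6%) in all 3, beside 17.2 and 39.1% of all narrow control regions. Of the 974, 779 had been called in exactly 2 control lists. Among regions with Suz12 the 4-OHT lists called 73.6, 95.8 and 84.2%, and 51 regions (2.42%) were called in none. The classes differed in control calls as well: 48.5% of the Suz12-free regions and 15.9% of those with Suz12 were called in exactly 2 control lists.

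Because the control lists chose the regions, calls were also compared in a control list that took no part in the choice. Regions were chosen in 2 control lists, and their calls were compared between the control list left out and the 4-OHT list of the same number. This reading was added after the lists were seen. Regions still entered by control calls alone, so a region called only after 4-OHT could not enter, which favours the controls. A matching reading of regions chosen in the 4-OHT lists is not given here, so gain and loss cannot be weighed from it. Suz12-free regions were called in 77.7, 82.0 and 73.6% in the left-out controls 1, 2 and 3, and in 58.6, 62.5 and 45.7% in 4-OHT 1, 2 and 3. The 2 conditions did not overlap, and the share was lower in 3 of 3 pairs by 22.2 ± 5.01 points (SD, n = 3). An exact permutation test gave p = 0.1, two-sided, the smallest that 3 against 3 allows, and pairing by number gave p = 0.25, also the smallest (exact sign-flip). Flanking regions were called in a mean of 80.2% in the left-out controls and 59.1% after 4-OHT, and distant regions in 74.0 and 50.2%, each lower in 3 of 3 pairs with an exact permutation p = 0.1.

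Regions with Suz12 read in the same way were called in 86.0, 99.8 and 98.3% in the left-out controls and in 74.2, 98.2 and 87.0% in the 4-OHT lists. The change of the Suz12-free regions exceeded theirs by 7.30, 17.8 and 16.6 points in replicates 1, 2 and 3, in the same direction in 3 of 3 pairs (exact sign-flip test, two-sided, p = 0.25, the smallest it allows). The classes were not matched for width here: regions with Suz12 were wider, and with nearly all of them called in left-out controls 2 and 3 a 1 bp call left little room above these values. The 4-OHT Suz12 lists also helped to set the classes, so their changes after 4-OHT are not a comparison independent of Suz12 calls. With the same number of regions taken from each list, the 6787 widest, the Suz12-free regions were still called less often, by 17.0 points (exact permutation p = 0.2). The part of list length in the rest was not tested.

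**Figure D3:**
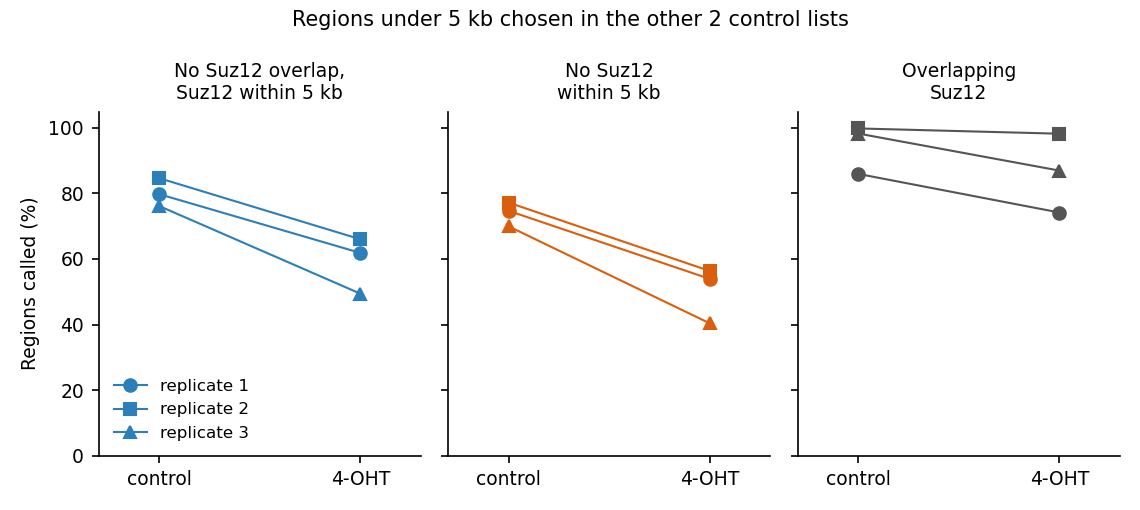
Share of regions called (%) in a control list that took no part in choosing them and in the 4-OHT list of the same number, for flanking regions (left), distant regions (middle) and narrow regions with Suz12 (right), 1 line per replicate number. Calls were lower after 4-OHT in all 9 lines, with the shortest drop, 1.61 points, in replicate 2 of the regions with Suz12.

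The share called after 4-OHT rose more across widths than across the distances and positions described here. The Suz12-free regions were split into 5 width groups of 708 to 872 regions. The mean share of them called in the 4-OHT lists was 20.1, 32.8, 47.8, 65.0 and 82.9% from the narrowest (25 to 325 bp) to the widest (1250 to 4825 bp). Regions with Suz12 rose likewise, from 39.3 to 91.6%, but these groups held 45, 64, 126, 227 and 1643 of them. The narrow groups thus rest on few regions with Suz12, and the widest group spans 1250 to 4975 bp in that class. Over all widths the Suz12-free regions were called 35.5 ± 14.3 points less often than those with Suz12, lower in 3 of 3 lists (exact sign-flip test, two-sided, p = 0.25, the smallest it allows). Because the 4-OHT Suz12 lists helped to set the classes, this difference is not independent of Suz12 calls after 4-OHT. It was not computed with the control Suz12 lists alone, by which a mean of 52.2% of Suz12-free regions were called. With all 3 control H3K27me3 lists required, the difference was -22.6 points, without minus with Suz12 (exact sign-flip p = 0.25). Compared within the width groups, the mean difference was 10.7 points and its direction was no longer shared: Suz12-free regions were called 18.2 points more often in 4-OHT list 1, and 31.3 and 19.1 points less often in lists 2 and 3 (exact sign-flip p = 0.5). The direction of the difference between the classes within width groups thus rested on which replicate was read.

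**Figure D4:**
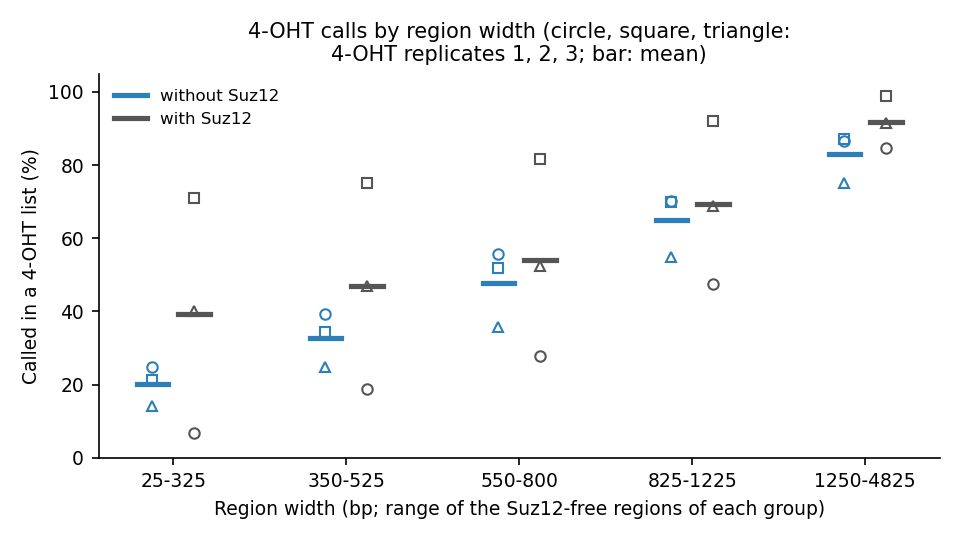
Share of control regions called in each 4-OHT list (%, circle, square and triangle for replicates 1, 2 and 3, bar for their mean) in 5 groups of region width (bp), without Suz12 (blue) and with Suz12 (grey). Both classes rise with width from means of 20.1 and 39.3% to 82.9 and 91.6%, and replicate 1 is the lowest point of the regions with Suz12 in every group.

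Retention also differed by position. Suz12-free promoter regions were called in 57.6, 58.6 and 44.2% in 4-OHT lists 1, 2 and 3, intronic ones in 44.1, 36.0 and 25.4% and intergenic ones in 52.7, 42.9 and 36.1%. The intronic share was below the promoter share in 3 of 3 lists, and intronic regions were also narrower, with a median of 525 against 700 bp. Regions within 1 kb of Suz12 were called in 62.1 ± 8.72% (SD, n = 3), those at 1 to 5 kb in 40.1 ± 8.58%, and those at 100 to 1000 kb in 48.3 ± 8.71%. Flanking regions as a whole were called 5.74 ± 0.849 points more often than distant ones, in 3 of 3 lists (exact sign-flip test, two-sided, p = 0.25, the smallest it allows).

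Measured in bases, the chosen regions held 2.03, 1.95 and 1.65 Mb of H3K27me3 in control lists 1, 2 and 3 and 0.919, 0.988 and 0.717 Mb in the 4-OHT lists. Covered bases were lower in all 3 4-OHT lists than in all 3 control lists for 706 regions (18.3%), beside 15.4% of all narrow regions. They were higher in all 3 for 2 regions, beside 0.0335% of all narrow regions, and the control calls that chose the regions bear on both counts. The 2 regions that were higher (named after their values were seen) lay 7.46 kb from the start of Evx1, a homeobox gene at the end of the Hoxa cluster, and 31.5 kb from that of Pcgf5, a Polycomb repressive complex 1 gene. The Evx1 region covered 250, 375 and 400 bp in the controls and 450, 650 and 450 bp after 4-OHT.

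The reverse choice gave fewer regions, and more of them were shared. Regions chosen in at least 2 4-OHT lists by the same rule numbered 2459, and 82.8 ± 2.23% of them (SD, n = 3) were called in the control lists, with 89 (3.62%) in none. Narrow regions with Suz12 chosen in this way numbered 2196, and 94.1 ± 7.17% (SD, n = 3) were called in the control lists, with 12 (0.546%) in none. Counting each list on its own, narrow regions without Suz12 numbered 14027, 5963 and 6139 in the controls and 7799, 4809 and 3978 after 4-OHT. The 4-OHT list was shorter in 3 of 3 pairs, at 0.556, 0.806 and 0.648 of its control. The log2 ratio of the means was -0.66 (exact permutation test, two-sided, p = 0.4), and within pairs its mean was -0.59 ± 0.27 (SD, n = 3; exact sign-flip p = 0.25, the smallest it allows). Regions with Suz12 numbered 2895, 2401 and 2449 against 2585, 2740 and 2530, with ratios on both sides of 1.

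Of the 10 widest regions called in all 6 lists, 5 still covered more than 1000 bp in every 4-OHT list, namely those at or near Grb10, Tcfap2b, Gbx2, Mrps23 and Peg12. The widths that ranked these 10 came from the control lists alone. This choice favours high control values and bears on each comparison below. At Grb10, an imprinted gene for an adaptor of insulin receptor signalling, a 4575 bp region over a start site (chr11:11926701-11931275) covered 3700, 4550 and 4025 bp in control lists 1, 2 and 3 and 2425, 3825 and 1050 bp in the 4-OHT lists. 4-OHT lists 1 and 3 lay below every control and list 2 within their range. A 4125 bp region in an intron of Tcfap2b, which encodes the transcription factor AP-2 beta, covered 3425, 4050 and 3700 bp and then 2350, 2575 and 2325 bp, and the conditions did not overlap. Beside Gbx2, a homeobox gene of the midbrain-hindbrain boundary, a 4050 bp region covered 3025, 3775 and 4050 bp and then 2075, 3625 and 3800 bp, with overlap. Near Mrps23, a mitochondrial ribosome gene, a region covered 4200, 3950 and 3900 bp and then 2050, 2300 and 1400 bp, without overlap. Near Peg12, an imprinted gene, the values were 1400, 2800 and 3800 bp and then 1775, 2825 and 2350 bp, which overlapped and were higher after 4-OHT in replicates 1 and 2.

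At 3 of the other 5, near Dagla, Nfix and Tacc3, each 4-OHT list covered less than every control. This held for 18.3% of all Suz12-free regions and 15.4% of all narrow control regions, and the choice by control width favours it here. The widest Suz12-free region of all lay in an intron of Dagla, which makes an endocannabinoid (chr19:10353926-10358750), 105 kb from Suz12, and covered 1950, 4800 and 4600 bp in controls and 300, 1800 and 125 bp after 4-OHT. Upstream of Nfix, a nuclear factor I gene, a 4100 bp region covered 3075, 3000 and 2325 bp and then 400, 600 and 350 bp. The region nearest to Tacc3, a spindle protein gene, covered 2400, 3375 and 2200 bp and then 225, 800 and 375 bp. Near Smug1, a DNA repair gene, and at Slc8a3, a sodium-calcium exchanger gene, the conditions overlapped. At Slc8a3 replicate 1 covered 4125 bp in the control and 3175 bp after 4-OHT, and the other 4 lists covered 25 to 1375 bp.

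Of the 1988 Suz12-free regions called in all 3 control lists, 195 (9.81%) were called in no 4-OHT list, among them 92 flanking (7.90%) and 103 distant (12.5%) regions. The share was 5.45% of all 3759 narrow regions called in all 3 control lists, and 10 of 1771 (0.565%) of those with Suz12. The widest was an intergenic region of 3875 bp (chr6:47596551-47600425), 254 kb from Suz12, that covered 3125, 3850 and 3450 bp in the controls. Its nearest protein-coding start site was that of Ezh2, the PRC2 methyltransferase, 51.2 kb away. The next were a 2900 bp region 210 kb from Cdh26, with 2425, 825 and 1550 bp in the controls, and a 2850 bp region 32.1 kb from Tifab, with 2175, 2275 and 425 bp. The other 7 were 1350 to 1850 bp wide. They included a region 2.77 kb from Gdf7, a ligand of the BMP family, with 1025, 1150 and 850 bp, and one 14.6 kb from Sfrp1, a secreted Wnt antagonist, with 1350, 1200 and 225 bp. A second Nfix region, 1.92 kb from a start site, covered 575, 1075 and 1075 bp. At Ank1 the region was nearly all from replicate 1, with 1500 bp against 25 and 50 bp in the other controls.

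**Figure D5:**
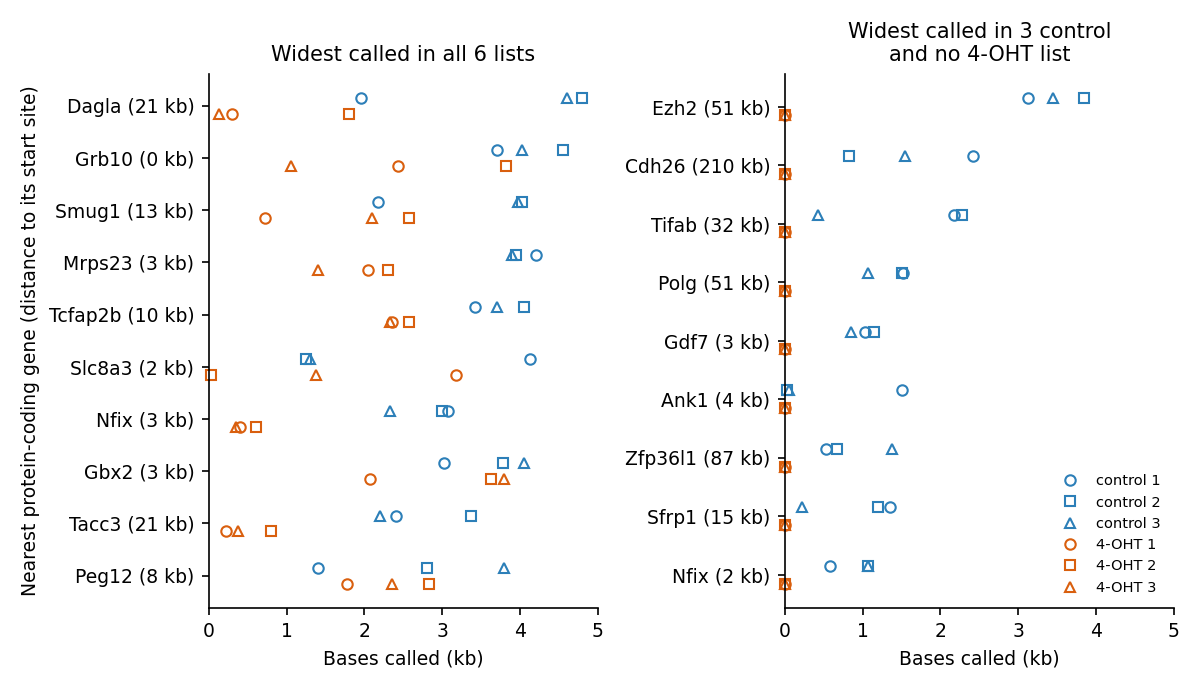
Bases called (kb) in each control (blue) and 4-OHT (orange) H3K27me3 list, with circle, square and triangle for replicates 1, 2 and 3, for the 10 widest Suz12-free regions called in all 6 lists (left) and 9 of the 10 widest called in 3 control and no 4-OHT list (right), named by the nearest protein-coding gene with the distance to its start site. The left-hand regions differ in how far the conditions overlap, and every orange point on the right is at 0.

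A Suz12-free region lay within 2.5 kb of a start site of 1747 of 22225 protein-coding genes, or 7.86%. Of these genes 1013 also had a Suz12 region within 5 kb of a start site, and 734 (42.0%) had none. At least 2 Suz12-free regions lay at 451 genes. The highest 2 counts at single genes were those of clustered protocadherins, neuronal adhesion genes whose many alternative starts follow each other: the annotated Pcdha11 unit had 13, of which 7, 8 and 8 were called in 4-OHT lists 1, 2 and 3, and the Pcdhgc5 unit had 8, of which 4, 4 and 7 were called. Pcdhgc5 had no Suz12 within 401 kb of any of them. Rtbdn, a riboflavin-binding protein gene of the retina, had 6, with 3525, 5350 and 3625 bp in the controls and 1925, 1900 and 950 bp after 4-OHT. The overlapping genes Kif17, a kinesin, and Sh2d5 shared some of their 5 regions, and the Kif17 regions summed to 4025, 6600 and 5850 bp and then 500, 2550 and 2350 bp. Ccdc33 had 4 regions with 5175, 6100 and 4325 bp in the controls and 725, 2175 and 300 bp after 4-OHT. Fgfr2, a fibroblast growth factor receptor gene whose annotated start sites lie far apart, had 4 with 6150, 5725 and 4625 bp and then 1175, 825 and 500 bp. Fam124a and Rasgef1a had 5 regions each, and 8430427H17Rik had 4. In summed bases the conditions overlapped at Pcdha11 and Pcdhgc5. They did not overlap at Rtbdn, Kif17, Sh2d5, Ccdc33, Fgfr2, Fam124a, Rasgef1a and 8430427H17Rik, of which Kif17 and Sh2d5 are not separate cases. The share of the 1747 genes without overlap was not computed. Among single Suz12-free regions, 18.3% covered less in all 3 4-OHT lists than in all 3 controls. Genes ranked by their number of regions also hold many control calls by that choice. The control calls that chose the regions bear on these comparisons.

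Developmental transcription factor families were mostly held by regions with Suz12. Of 189 genes 139 (73.5%) had an H3K27me3 region with Suz12, narrow or wide, within 2.5 kb of a start site, beside 8.45% of all protein-coding genes. Of the 189, 33 (17.5%) had a Suz12-free one, with or without the former, beside 7.86% of all genes. A Suz12-free one with no Suz12 region within 5 kb was found at 6 (3.17%), beside 3.30% of all genes. One of the 6, Tbxas1, encodes thromboxane synthase and entered by its name alone, and the others were Foxi2, Foxj1, Foxo1, Foxp4 and Pou3f4. Foxj1, a regulator of motile cilia, covered 0, 400 and 575 bp in the controls and 125, 375 and 0 bp after 4-OHT. The widest 2 regions of this list had Suz12 within 5 kb: at Nkx2-2, a homeobox gene of the ventral neural tube, the region covered 2700, 2100 and 2375 bp and then 1650, 1200 and 1400 bp, and at Irx1 2175, 2375 and 2100 bp and then 1375, 2275 and 1750 bp. The Nkx2-2 values did not overlap and the Irx1 values did. Regions called in 2 control and no 4-OHT list included those of Runx1, a regulator of blood formation, and Sox8. The same was seen at Foxi3, Foxp4, Hoxb3, Pou3f4 and Sox13. It is a common outcome: of all Suz12-free regions called in exactly 2 control lists, 41.7% were called in no 4-OHT list.

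Of 29 Wnt ligands and secreted antagonists, 12 (41.4%) had a Suz12-free region and 19 (65.5%) one with Suz12, beside 7.86 and 8.45% of all protein-coding genes. Wnt2, Wif1 and Dkk1 had a Suz12-free region and no Suz12 region within 5 kb. At Wnt2 the widest region covered 775, 775 and 1225 bp in the controls and 0, 950 and 1000 bp after 4-OHT. At Wif1, an extracellular Wnt inhibitor with 4 such regions, the widest covered 625, 525 and 100 bp and then 275, 0 and 150 bp. At Wnt7a and Wnt5b, ligands with Suz12 next to the region, all 6 lists called it. At Wnt3a, which is needed for posterior mesoderm, a 200 bp region was called in 2 control lists and in no 4-OHT list. Of all Suz12-free regions in exactly 2 control lists, 41.7% likewise had no 4-OHT call.

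Of 204 ion channel genes 67 (32.8%) had a Suz12-free region and 71 (34.8%) one with Suz12, beside 7.86 and 8.45% of all protein-coding genes. A Suz12-free region with no Suz12 region within 5 kb was found at 24 (11.8%), beside 3.30% of all genes. Similar numbers of genes with either kind were thus seen over all genes as well, at 1747 and 1879. At Kcnh2, a cardiac potassium channel gene, the region 36.8 kb from Suz12 covered 1350, 2425 and 1875 bp in the controls and 400, 1300 and 100 bp after 4-OHT. At Kcnj2, an inward rectifier gene 1345 kb from Suz12, it covered 675, 1275 and 450 bp and then 850, 1175 and 250 bp, and at Kcnj10 1200, 1000 and 1075 bp and then 1025, 700 and 1175 bp. The Kcnh2 values did not overlap, and the Kcnj2 and Kcnj10 values did. The pacemaker channel gene Hcn4 had a flanking region with 1325, 1700 and 975 bp and then 825, 1025 and 1250 bp, again with overlap. One entry, Grinl1a, matched by name and is not a glutamate receptor subunit.

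The remaining lists are to be read beside 7.86% of all protein-coding genes with a Suz12-free region and 8.45% with one with Suz12. With no Suz12 within 5 kb the all-gene share was 3.30%. Of 59 cadherin and protocadherin genes 18 (30.5%) had a Suz12-free region and 16 (27.1%) one with Suz12. Of the 18, 8 were without Suz12 within 5 kb, all 8 in the protocadherin clusters, where neighbouring genes share regions. Of 33 imprinted genes found in the annotation, 11 (33.3%) had a Suz12-free one and 13 (39.4%) one with Suz12. Of the 11, Ndn, Magel2 and Gatm lacked Suz12 within 5 kb. Magel2 covered 350, 275 and 700 bp in the controls and 150, 325 and 200 bp after 4-OHT. A 1125 bp region at Igf2r covered 0, 1125 and 550 bp in the controls and was called in no 4-OHT list. So were 41.7% of all Suz12-free regions in exactly 2 control lists. Of 30 germ cell genes 4 had a Suz12-free one (13.3%), namely Tdrd6, Stag3, Smc1b and Ybx2, and the last 3 had no Suz12 within 5 kb. A region with Suz12 was found at 2 of the 30 (6.67%). Stag3, a meiotic cohesin gene, covered 175, 200 and 75 bp in the controls and 0 in each 4-OHT list. Of all Suz12-free regions in all 3 control lists, 9.81% had no 4-OHT call. Genes named Zfp had a Suz12-free region in 17 of 367 (4.63%) and one with Suz12 in 14 (3.81%). Keratin genes had a Suz12-free region in 1 of 100 (Krt83), and olfactory and vomeronasal receptor genes in 0 of 1458. None of the 11 PRC2 genes had a Suz12-free region, and Phf19 alone had a region with Suz12.

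Few Suz12-free regions carried H3K27ac, a mark of active promoters and enhancers on the same lysine. The control H3K27ac lists overlapped 60 (1.56%) and 40 (1.04%) of the 3857, and 75 (1.94%, exact binomial interval 1.53 to 2.43%) were overlapped by either, beside 3.91% of all narrow control regions and 7.51% of those with Suz12. Averaged at the widths of the Suz12-free regions, 8.78% of regions with Suz12 had H3K27ac. After 4-OHT the counts were 89 and 59, higher than the control of the same number in both replicates but overlapping the control counts in range. Regions with Suz12 rose likewise, from 144 and 96 in the controls to 188 and 137. The 4-OHT H3K27ac lists were shorter in all (36000 and 32161 regions against 37590 and 41062). With 2 lists against 2 the smallest exact p is 0.33. Of the Suz12-free regions 49 had H3K27ac in both 4-OHT lists, beside 125 of those with Suz12. H3K27me3 4-OHT lists 1, 2 and 3 still called 44.9, 67.3 and 28.6% of the 49, beside 54.5, 52.1 and 40.3% of all Suz12-free regions. Of the 125 they called 52, 85.6 and 65.6%. The tagged Brg1 lists overlapped 43, 40 and 0 regions, the third list holding 192 regions in all. Any FLAG list overlapped 72 (1.87%), beside 3.86% of all narrow regions and 7.51% of those with Suz12.

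The 5 widest Suz12-free regions with H3K27ac in both control lists or FLAG in at least 2 lists lay near Gadd45g, Gata6, Ccdc33, N4bp2 and Ppp2r5c. In an intron of Gata6, a transcription factor gene of endoderm and heart, the region covered 200, 1425 and 1825 bp of H3K27me3 in the controls and 650, 775 and 1575 bp after 4-OHT. H3K27ac covered 425 and 650 bp of it in the controls and 0 and 625 bp after 4-OHT. The 2575 bp region near Gadd45g, a growth arrest gene, carried 50 bp of FLAG in each of 2 lists and no H3K27ac in the controls. At Ccdc33 the region covered 1425, 1425 and 750 bp of H3K27me3 and then 0, 100 and 0 bp, with 100 and 125 bp of FLAG. These marks come from separate cultures, so their overlap does not show that they lay on the same chromatin.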

How the data were processed

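The authors deposited 17 lists of enriched regions, one per ChIP library, called over input by a Poissonian model with a cut-off of 1e-12 (1e-06 with at least 2-fold enrichment for FLAG), with Bowtie and mm9 named in the submitters' processing notes. The deposited columns are positions only (chromosome, start and end, with no count or score), so depth is unknown and other precision than counting error is seen only between lists. The 11 inputs were not used further. Groups and numbers came from the sample labels. The members and gene lists were chosen with earlier results of these data known.

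A region was called in a list when at least 1 bp of it was covered. Promoters, exons and introns came from GENCODE vM1 on mm9, with 86842 start sites. Regions of one list are not replicates, so tests ran over lists: exact permutation for 3 against 3 libraries and exact sign flips for paired values, both two-sided. Same-numbered control and 4-OHT libraries deviated together from their condition means (r = 0.932, 0.875 and 0.796 over 19499 merged regions), so the numbers were taken to pair the samples, as judged from the lists alone. Unlike numbers of replicates 2 and 3 also deviated together (r = 0.692 and 0.760), and replicate 1 stood against both (r = -0.891 to -0.804). The 3 deviations of a condition cancel each other, so where replicates 2 and 3 are alike this negative r is largely forced. The check thus mainly sets replicate 1 apart and says little on the pairing of replicates 2 and 3. Named regions were the 10 widest called in all 6 and the 10 widest in 3 control and no 4-OHT list, the 5 farthest from and nearest to Suz12, the 5 widest with H3K27ac or FLAG, the 10 genes with most regions, and genes of the lists; 1 of these regions is not reported here. Alternatives covered thresholds, widths, overlaps, distances and each library left out. The interval functions and exact tests were tested on simulated regions. Python 3.11.15, NumPy 2.4.6 and SciPy 1.17.1 were used.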

Additional observations from a re-analysis of the deposited data

How the results depend on the processing

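The number of Suz12-free regions was 1988 when all 3 control lists had to call a region, 1688 with no Suz12 within 5000 bp, 1264 with listed regions of at least 500 bp only and 1846 with regions within 1000 bp joined. Their mean retention after 4-OHT was 67.8% with all 3 control lists required, 19.5% with at least 50% of bases covered, 56.6% with equal numbers of regions per list and 82.8% for the reverse choice. With 1 H3K27me3 library left out it ranged from 46.2 to 60.1%, and every control library left out raised it to 56.9% or more, both others then having to call a region. The median distance to Suz12 was 19.9 kb with the control Suz12 lists only, and ranged from 3.10 to 6.10 kb with 1 Suz12 list left out. The share with H3K27ac was 0.648% when both control lists had to hold it, and 1.04 to 1.56% with 1 left out.

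The promoter difference was -22.0 points with the 3 control lists alone (exact p = 0.25, the smallest 3 lists allow) and -9.76 points with listed regions of at least 500 bp (exact sign-flip p = 0.09375), and the CpG difference was -2.17 per 100 bp with the 3 control lists alone (exact p = 0.25). With same-numbered control and 4-OHT lists averaged (replicate block, added after the data were seen), the promoter difference of -18.2 points and the CpG difference of -2.15 per 100 bp each had an exact sign-flip p = 0.25. Under the replicate block, paired by number, the log2 ratio of Suz12-free regions per list was -0.59 (exact sign-flip p = 0.25) and the change in calls outside the choosing lists was -22.2 points (exact sign-flip p = 0.25). All 37 alternatives of tested results kept the direction of the mean, although within width groups replicate 1 went the other way. The other alternatives stayed within 1.5 times a count, within 1 SD of a value or on the same side of the threshold. The causes of the changes were not tested. Depth could not be examined, since the lists hold no counts.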
